A study of Homo sapiens with 9 samples.

Results

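The genes described here handle iron: SCARA5, TFRC, STEAP3 and SLC11A2 in uptake, FTH1, FTL and NCOA4 in storage, SLC40A1 in export, and ACO1 and IREB2 in regulation. SCARA5 was chosen by its measured signal, which was lower in the si-BAP1 arrays, so its values against the other groups in si-BAP1 arrays are given as a description with no test. The other 9 genes were listed for their roles in iron handling, with earlier results of these data known. A probe set (a group of short probes that reads 1 transcript or several similar ones) was taken where its only annotated gene symbol was 1 of the 10. That gave 31 probe sets of 8 genes, of 49293 non-control probe sets and 18132 genes with a symbol of their own. The expression of FTH1 and IREB2 was not analysed here.

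The study measured RNA of HCCC-9810, a human intrahepatic cholangiocarcinoma cell line, on Affymetrix arrays with biotin-labelled cRNA. There were 3 arrays with siRNAs against BAP1 (si-BAP1), 3 with siRNAs against MBD5 (si-MBD5) and 3 controls (si-Control), which the series' design text calls separate biological replicates. BAP1 encodes a nuclear deubiquitinase and MBD5 a protein with a methyl-CpG-binding domain, and both proteins can take part in the Polycomb deubiquitinase complex. The control is called a control siRNA in the sample titles and a control shRNA in the source descriptions, and which of these was used is not settled by the labels. No dose, siRNA sequence or time after transfection is given, and all groups are of 1 cell line.

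Cells take up transferrin-bound iron through the transferrin receptor, encoded by TFRC. The endosomal reductase STEAP3 converts the iron to its ferrous form, and the transporter SLC11A2 (DMT1) moves it to the cytosol. SCARA5 is a class A scavenger receptor that can bind ferritin and so carry iron in without transferrin. Iron is stored in a shell of heavy (FTH1) and light (FTL) ferritin chains, NCOA4 delivers ferritin to lysosomes for breakdown, and ferroportin (SLC40A1) is the exporter. The iron regulatory proteins encoded by ACO1 and IREB2 bind hairpins called iron-responsive elements: in the leader of ferritin mRNA they block translation, and after the coding region of TFRC mRNA they protect the message from decay.

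The stretch of the FTL leader that holds the loop of its iron-responsive element is shown because FTL carries the hairpin in its leader, and its probe sets gave differing readings. The sequence is RefSeq's, chr19:48965329-48965358 on the plus strand of GRCh38.p14, within the FTL gene (chr19:48965309-48966879), and the capitals mark the loop bases.
FTL: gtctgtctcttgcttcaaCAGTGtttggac
The pattern CNNNNNCAGTG, a bulged C followed by the loop, was searched on both strands of 300-base windows around transcript starts (250 bases before and 50 after). It was found in 18.6% of all 35116 windows, and in 10.2% on the strand of the gene. Among 13 windows of 8 of the iron genes, FTL held 1 match on its own strand and NCOA4 1 on the other strand. These 8 genes include IREB2, while SCARA5 and FTH1 had no window and were not searched. The windows end 50 bases after the start. Elements further into a transcript, such as those of TFRC mRNA, lay outside the search. No match here does not mean that a gene lacks the element. The bases before the TFRC start are shown because all 3 TFRC probe sets read higher in si-BAP1 arrays. They lie at chr3:196082091-196082340 on the minus strand, next to the TFRC gene (chr3:196049284-196082090), and the capitals mark ACGTG, the core of the hypoxia-response element.
TFRC: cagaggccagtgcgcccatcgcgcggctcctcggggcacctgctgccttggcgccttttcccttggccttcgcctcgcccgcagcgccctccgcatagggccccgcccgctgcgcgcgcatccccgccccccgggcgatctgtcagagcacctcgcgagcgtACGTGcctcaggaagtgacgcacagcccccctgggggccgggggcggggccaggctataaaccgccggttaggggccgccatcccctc
ACGTG was found in 21.4% of all windows on either strand. TFRC held 1 on its own strand and FTL 1 on the other. The E-box CACGTG, which contains ACGTG, was in 7.26% of all windows and in none of the 13. A match is a run of letters, not a shown binding site.

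Signals are the authors' MAS5 intensities. The median array intensity was between 36.9 and 38.2. Arrays of a group correlated at 0.996 to 0.998 (9 pairs), against 0.993 to 0.997 for arrays of different groups (27 pairs). These correlations are of log2(intensity + 16) over the 29584 probe sets with a mean intensity over 25.5. BAP1 was not analysed here. MBD5 had 2 dim probe sets: 11751963_a_at read 6.20, 6.20 and 6.11 in si-MBD5 arrays, against 7.16, 7.06 and 6.90 in si-Control arrays, and 11728113_s_at read 2.34 ± 0.081 against 2.39 ± 0.37 (SD, n = 3 each). Both lie below the intensity of 25.5 used as a filter, so the knockdown was not tested. Of 7 biliary markers, 6 had a probe set and 4 passed the filter, and the means of si-BAP1, si-MBD5 and si-Control arrays were 1004, 980 and 1118 for KRT7, 824, 690 and 662 for KRT8, 1725, 1683 and 1755 for KRT18 and 45.1, 38.4 and 39.0 for SOX9. By limma, KRT7 fell in si-BAP1 (adjusted p = 0.0295) and in si-MBD5 (0.0155), and KRT8 rose in si-BAP1 (3.6e-04). KRT18 and SOX9 did not pass in either, while KRT19 and EPCAM were below it. Their summed intensity was 3592 to 3700 in si-BAP1 arrays, 3256 to 3521 in si-MBD5 arrays and 3464 to 3739 in si-Control arrays. The ratio of the 3' to the 5' ACTB control probe set was 11.1 ± 0.31 in si-BAP1 arrays and 12.3 ± 0.72 in si-MBD5 arrays, against 12.2 ± 0.52 in si-Control arrays (SD, n = 3 each). The si-BAP1 difference of -1.06 had an exact two-sided permutation p of 0.1, the smallest that 3 against 3 arrays allow. For GAPDH the ratio was 1.08 ± 0.011 in si-BAP1, 1.07 ± 0.0046 in si-MBD5 and 1.06 ± 0.026 in si-Control arrays. Its exact permutation p against si-Control was 0.3 for si-BAP1 and 0.7 for si-MBD5.

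Markers of other cell types were read in the same way, by the summed intensity of each gene's brightest probe set. All arrays are of 1 cell line, so these sums are not read as numbers of cells of a type. No marker was listed at 0. For hepatocytes, 2 of 5 genes passed the filter and the sum was 119 to 127 in si-BAP1 arrays, 117 to 139 in si-MBD5 arrays and 115 to 129 in si-Control arrays. For immune cells 1 of 5 passed, with sums of 97.4 to 118, 101 to 118 and 106 to 115 in the same order of groups. For fibroblasts 2 of 5 passed, with 139 to 149, 135 to 150 and 124 to 132, and for erythroid cells 2 of 4 had a probe set, with 156 to 167, 165 to 176 and 141 to 159. The fibroblast sums of both knockdowns and the erythroid sums of si-MBD5 lay above those of si-Control without overlap. PDGFRB and the globin gene HBB were past the threshold in both. The other erythroid marker, ALAS2, averaged 44.0, 49.0 and 50.4 in the same order, and the fibroblast marker COL1A1 29.9, 29.2 and 29.4. Neither passed in either knockdown. Below the filter, COL1A2 and COL3A1 overlapped between the groups, while DCN was higher in si-BAP1 arrays than in si-Control arrays. The part of these markers in the results below was not tested.

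Of the 31 probe sets, 25 of 7 genes passed the filter, and both SLC40A1 sets were among the 6 that did not. A probe set is said to have risen or fallen where limma's adjusted p, over all 29584 probe sets kept, was under 0.05. In si-BAP1 arrays, 12 of the 25 passed this threshold against si-Control, 3 higher and 9 lower. Of all probe sets kept, 20.2% passed, 11.4% higher and 8.79% lower. Since SCARA5 was chosen by this contrast, the count without it is 11 of 22, with 8 lower. The same number, 12, had no overlap between the arrays of the groups, as had 35.6% of all probe sets. The median log2 fold change was -0.03 over the 25 probe sets and 0.01 over all. Nothing is read from these shares, since the genes were listed with this comparison known, and several probe sets read the same transcript.

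In si-MBD5 arrays, 3 of the 25 passed against si-Control, 1 higher (TFRC) and 2 lower (both SLC11A2). That is 12.0%, near the 12.5% of all probe sets, of which 5.90% were higher and 6.65% lower. The arrays of the groups did not overlap at 5 of the 25, and at 27.8% of all. Between the knockdowns, SCARA5 again has no test, since its si-BAP1 signal chose it. Of the 22 probe sets of the other genes, 5 passed for si-BAP1 against si-MBD5, 1 higher (TFRC) and 4 lower (SLC11A2 and 3 of FTL). Of all probe sets 7.69% passed this comparison, 4.53% higher and 3.16% lower. With SCARA5 counted, the arrays did not overlap at 13 of the 25, and at 23.3% of all. Both comparisons with control use the same 3 si-Control arrays.

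**Figure D1:**
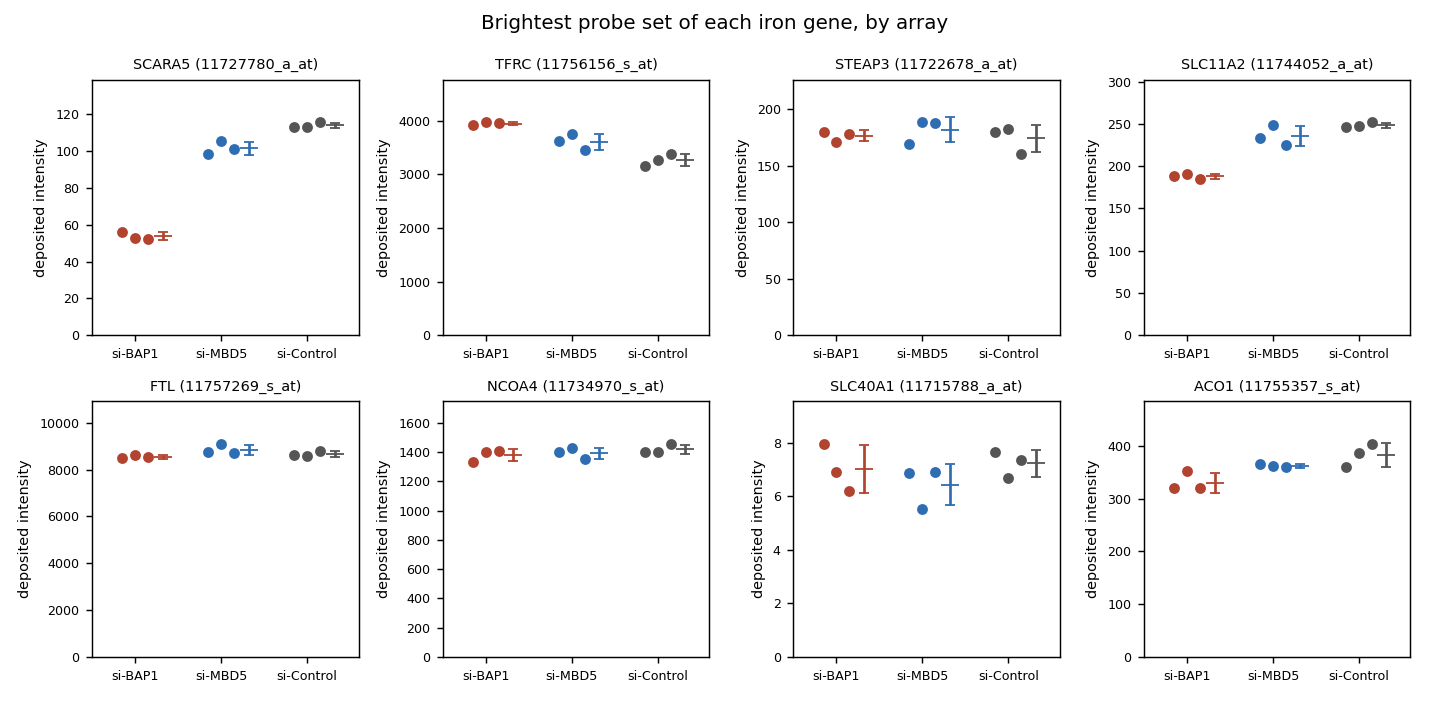
Deposited intensity (vertical axes, linear from 0) of the brightest probe set of each iron gene in each of the 9 arrays, by group (si-BAP1, si-MBD5, si-Control). Points are arrays, and the bars beside them are group means with SD. SCARA5 sits at 52.3 to 56.1 in si-BAP1 arrays, under all other arrays, while NCOA4 overlaps between the groups.

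SCARA5, the ferritin-binding scavenger receptor, showed the widest gap, and only through 1 of its 4 probe sets. The brightest, 11727780_a_at, read 56.1, 53.0 and 52.3 in si-BAP1 arrays, 98.3, 105 and 101 in si-MBD5 arrays and 113, 113 and 116 in si-Control arrays. All si-BAP1 arrays were lower than every other array. The si-BAP1 mean was 53.8 ± 2.01, against 114 ± 1.40 in si-Control (SD, n = 3 each), a ratio of 0.472 and a log2 difference of -0.90 (SE 0.045). Against si-MBD5, at 102 ± 3.65, the log2 difference was -0.75 (SE 0.045). These values chose the gene and have no test here.

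The other SCARA5 probe sets did not show that gap. The probe set 11753239_a_at read 51.3, 47.3 and 48.2 in si-BAP1 arrays, 50.1, 43.1 and 50.9 in si-MBD5 arrays and 49.9, 48.2 and 47.6 in si-Control arrays. Its si-BAP1 and si-Control arrays overlapped, and the log2 difference was 0.01 (SE 0.055). The probe set 11761033_at read 31.5, 31.5 and 28.6 in si-BAP1 arrays, 31.5, 34.9 and 37.4 in si-MBD5 arrays and 28.0, 32.8 and 32.7 in si-Control arrays, a log2 difference of -0.02 (SE 0.060) for si-BAP1 against si-Control. Again the arrays overlapped. The last, 11727781_a_at, was below the filter in all arrays, at 15.3 to 17.1 in si-BAP1, 16.8 to 18.6 in si-MBD5 and 17.1 to 17.5 in si-Control. Each was designed from another accession, and which SCARA5 transcripts each one reads was not tested.

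Against si-Control, the brightest SCARA5 probe set had a log2 difference of -0.15 (SE 0.045) in si-MBD5 arrays, and no si-MBD5 array overlapped a si-Control array. Its limma adjusted p lay just above the threshold of 0.05. It was past the threshold in 7 of the alternative settings, among them without si-MBD5 replicate 2 (0.0390), and its range over all of them was 0.0342 to 0.149. The same si-Control arrays entered the contrast that chose SCARA5, so these p values are not independent evidence of a fall in si-MBD5.

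**Figure D2:**
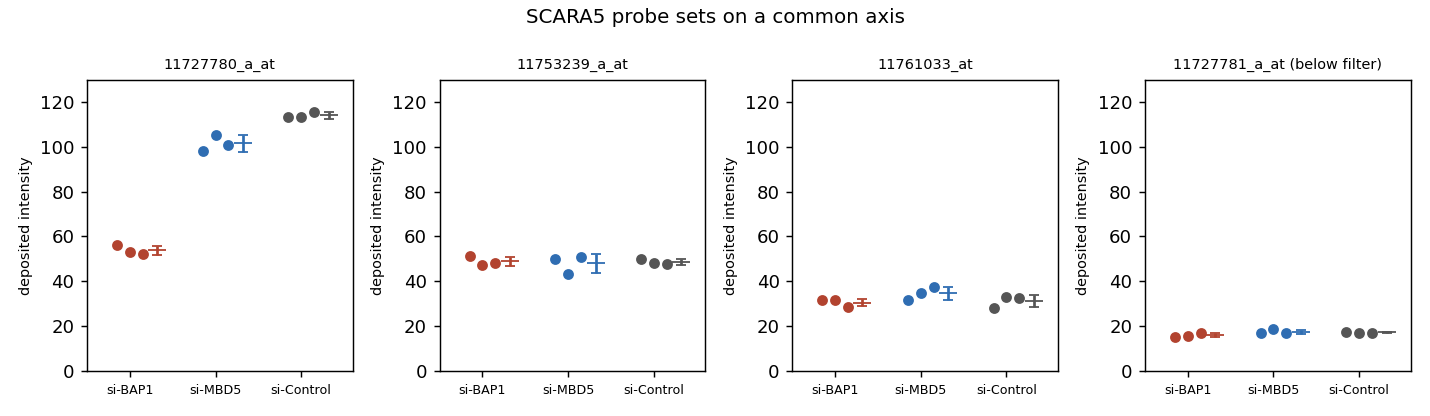
Deposited intensity (vertical axis) of each of the 4 SCARA5 probe sets in the 9 arrays, by group. Points are arrays, and the bars beside them are group means with SD. The group means of 11727780_a_at are 53.8, 102 and 114 in si-BAP1, si-MBD5 and si-Control, while those of 11753239_a_at are 48.9, 48.0 and 48.6.

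TFRC, the transferrin receptor, rose in si-BAP1 arrays at all 3 of its probe sets. The brightest, 11756156_s_at, read 3924, 3975 and 3953 in si-BAP1 arrays, 3617, 3757 and 3455 in si-MBD5 arrays and 3151, 3277 and 3386 in si-Control arrays. The 3 groups did not overlap, with si-BAP1 highest and si-MBD5 between. The rise in si-BAP1 was 20.8%, or 0.27 on the log2 scale (SE 0.034, adjusted p = 8.4e-05). In si-MBD5 it was 10.4%, or 0.14 (SE 0.034, adjusted p = 0.0150). The si-BAP1 arrays were higher than the si-MBD5 arrays by 0.13 (SE 0.034, adjusted p = 0.0329).

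The probe set 11715477_at read 2209, 2367 and 2297 in si-BAP1 arrays, 2100, 2162 and 1877 in si-MBD5 arrays and 1865, 1846 and 1950 in si-Control arrays. It rose by 0.28 in si-BAP1 (SE 0.047, adjusted p = 9.3e-04), and its difference of 0.11 in si-MBD5 was not past the threshold (adjusted p = 0.147). The dimmer 11715478_a_at read 115, 135 and 128 in si-BAP1 arrays, 105, 114 and 110 in si-MBD5 arrays and 103, 101 and 106 in si-Control arrays. It rose by 0.25 in si-BAP1 (SE 0.056, adjusted p = 0.00634), against a difference of 0.07 in si-MBD5 (adjusted p = 0.453). The 3 TFRC calls for si-BAP1 held under every alternative tried. The si-MBD5 call at 11756156_s_at was lost without si-Control replicate 1 (adjusted p = 0.0685) or 2 (0.0536) and without si-MBD5 replicate 1 (0.0555) or 2 (0.0507), and also under median centring (0.0539) and with no intensity trend (0.0633). A si-MBD5 call at 11715477_at was gained without si-MBD5 replicate 3 (0.00836) and under quantile normalization (0.0338).

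STEAP3, the endosomal ferrireductase, did not pass the threshold at any probe set. Its brightest, 11722678_a_at, read 180, 171 and 178 in si-BAP1 arrays, 169, 188 and 188 in si-MBD5 arrays and 180, 183 and 160 in si-Control arrays. The groups overlapped, and the log2 differences were 0.02 in si-BAP1 (SE 0.056, adjusted p = 0.858) and 0.06 in si-MBD5 (adjusted p = 0.573). Just above the filter, 11722677_a_at averaged 25.4 ± 0.51 in si-BAP1 arrays and 24.9 ± 2.45 in si-MBD5 arrays, against 27.9 ± 0.89 in si-Control arrays (SD, n = 3 each). Its si-BAP1 arrays lay below the si-Control arrays, yet the difference of -0.09 did not pass (adjusted p = 0.283). The last STEAP3 probe set, 11752403_a_at, read 24.8 to 28.5 in si-BAP1 arrays, 24.3 to 25.9 in si-MBD5 arrays and 25.9 to 27.2 in si-Control arrays and did not pass in either.

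SLC11A2, the divalent metal transporter, fell in si-BAP1 arrays at 2 of 4 probe sets above the filter, and in si-MBD5 arrays also at 2 of 4. Its brightest, 11744052_a_at, read 188, 190 and 185 in si-BAP1 arrays, 233, 249 and 225 in si-MBD5 arrays and 246, 247 and 252 in si-Control arrays. The si-BAP1 arrays were lower than all others, while the si-MBD5 arrays overlapped si-Control. The si-BAP1 mean fell by 24.4%, or -0.38 on the log2 scale (SE 0.044, adjusted p = 5.3e-05), a call that held under every alternative. In si-MBD5 the difference of -0.07 was not past the threshold (adjusted p = 0.330), and si-BAP1 was lower than si-MBD5, with a log2 difference of -0.30 (SE 0.044, adjusted p = 9.8e-04).

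The other probe sets of SLC11A2 had another pattern. The probe set 11759691_a_at read 127, 132 and 128 in si-BAP1 arrays, 126, 128 and 118 in si-MBD5 arrays and 145, 141 and 164 in si-Control arrays. It fell in both knockdowns, with log2 changes of -0.19 in si-BAP1 (SE 0.055, adjusted p = 0.0270) and -0.24 in si-MBD5 (SE 0.055, adjusted p = 0.0112), and between them the log2 difference was 0.05 (adjusted p = 0.642). Its si-BAP1 call was lost without si-BAP1 replicate 1 (adjusted p = 0.0812) or 3 (0.0819) and without si-Control replicate 3 (0.109). The probe set 11764275_s_at read 94.2, 95.4 and 100 in si-BAP1 arrays, 86.2, 96.4 and 85.2 in si-MBD5 arrays and 100, 102 and 104 in si-Control arrays. It fell in si-MBD5, with a log2 change of -0.17 (SE 0.050, adjusted p = 0.0437), and its difference of -0.07 in si-BAP1 did not pass (adjusted p = 0.391). That si-MBD5 call was lost in 11 alternatives, 8 of which left out 1 array, with adjusted p between 0.0536 and 0.140 in those 8. At 11744053_a_at neither knockdown passed, with -0.03 in si-BAP1 and -0.04 in si-MBD5. The probe sets 11759527_at and 11759690_at were below the filter, between 5.94 and 9.34 in all arrays. SLC11A2 is made in forms with and without an iron-responsive element, and which form each probe set reads was not tested.

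**Figure D3:**
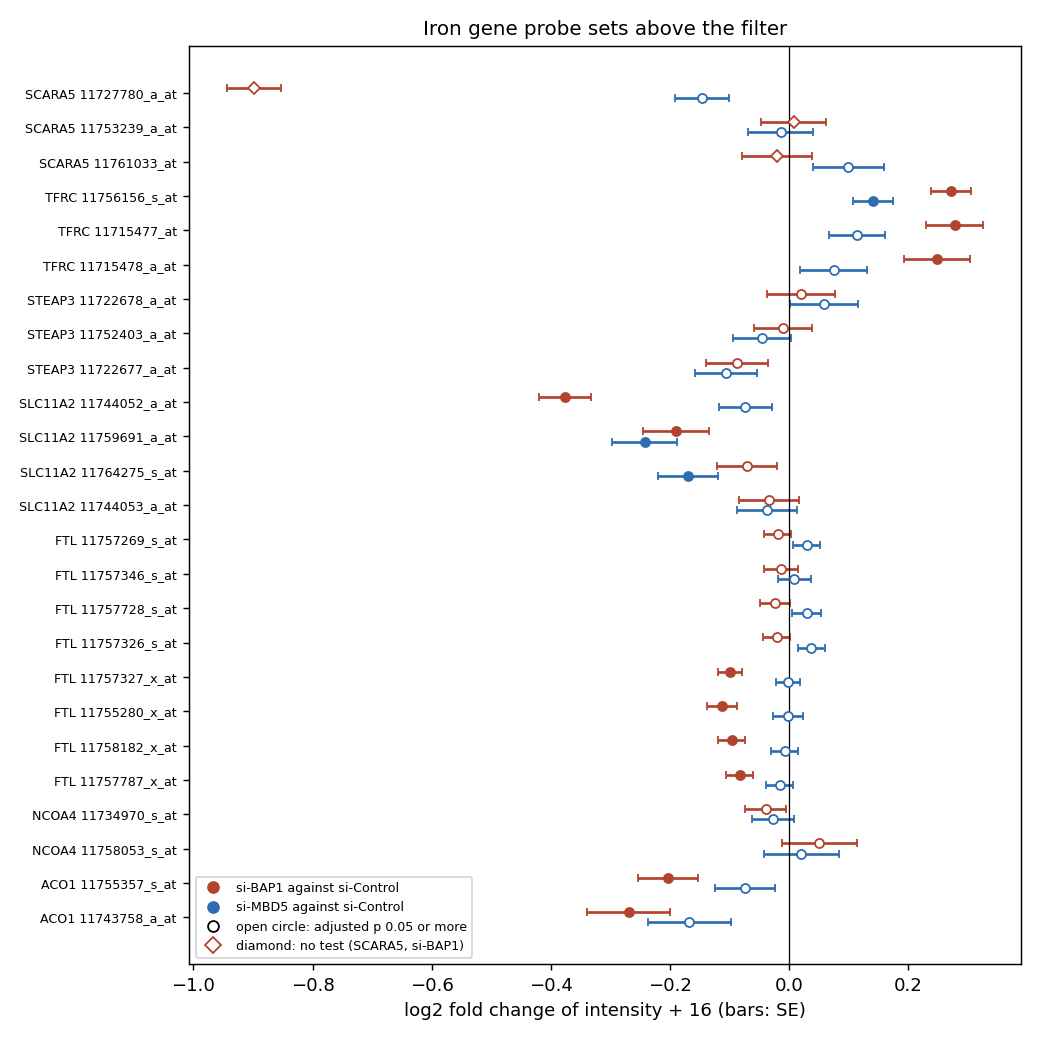
Log2 fold change (horizontal axis, on log2 of intensity plus 16) of each of the 25 probe sets above the filter, for si-BAP1 and si-MBD5 against si-Control. Bars are SE and filled circles have a limma adjusted p under 0.05, while diamonds are SCARA5 in si-BAP1, which has no test. The SCARA5 probe set at -0.90 lies farthest from 0, TFRC lies to the right at 0.25 to 0.28 in si-BAP1, and the FTL probe sets lie between -0.11 and -0.01 in si-BAP1.

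FTL, the ferritin light chain, was read by 8 probe sets, all within the brightest 1% of the array, in 2 classes by their suffix. The 4 sets ending in _s_at ranged from 7954 to 8835 in si-BAP1 arrays, 8293 to 9087 in si-MBD5 arrays and 8064 to 8798 in si-Control arrays. None of them passed the threshold in si-BAP1, with log2 differences of -0.02 to -0.01 and adjusted p of 0.579 to 0.797. The 4 sets ending in _x_at, a suffix for probes that can also match other sequences, ranged from 4849 to 7574 in si-BAP1 arrays, 5030 to 8079 in si-MBD5 arrays and 5156 to 8103 in si-Control arrays. All 4 fell in si-BAP1, by 5.61% to 7.52% of the mean, with no overlap with si-Control and adjusted p of 0.00345 to 0.0206. In si-MBD5 none of the 8 passed.

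A pair of these probe sets was designed from the same accession. Of the pair, 11757327_x_at read 7574, 7407 and 7544 in si-BAP1 arrays, 7943, 8068 and 8079 in si-MBD5 arrays and 8103, 8084 and 7937 in si-Control arrays, a log2 change of -0.10 for si-BAP1 (SE 0.020, adjusted p = 0.00345). Its partner 11757326_s_at did not pass. FTL has many processed pseudogenes, so how much of either signal came from FTL itself is uncertain. All 4 FTL falls were lost without the intensity trend in limma's variance (adjusted p of 0.0698 to 0.153). That at 11757787_x_at was lost also without si-BAP1 replicate 1 (0.0643) or 2 (0.0689) and without si-Control replicate 1 (0.0654) or 2 (0.0595), and with no filter (0.0645).

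NCOA4, the ferritinophagy receptor, did not pass at either probe set. The brighter, 11734970_s_at, read 1334, 1401 and 1409 in si-BAP1 arrays, 1402, 1426 and 1352 in si-MBD5 arrays and 1402, 1402 and 1455 in si-Control arrays. The groups overlapped, and the si-BAP1 log2 difference was -0.04 (95% interval -0.11 to 0.04, adjusted p = 0.497). In si-MBD5 it was -0.03 (adjusted p = 0.687). The other probe set, 11758053_s_at, differed by 0.05 in si-BAP1 (adjusted p = 0.650).

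Both probe sets of SLC40A1, which encodes the iron exporter ferroportin, were below the filter and were not tested. The brighter, 11715788_a_at, read 7.9, 6.9 and 6.2 in si-BAP1 arrays, 6.9, 5.5 and 6.9 in si-MBD5 arrays and 7.6, 6.7 and 7.4 in si-Control arrays. The dimmer 11715789_a_at read 4.10 to 5.31 in si-BAP1 arrays, 5.25 to 6.03 in si-MBD5 arrays and 4.66 to 5.25 in si-Control arrays. No group was separate from another at either probe set, though at the dimmer one si-MBD5 and si-Control arrays met only at 5.25. A change of ferroportin mRNA was not measurable with these probe sets.

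ACO1, the cytosolic aconitase that serves as iron regulatory protein when it lacks its iron-sulphur cluster, fell in si-BAP1 arrays at both probe sets above the filter. The brighter, 11755357_s_at, read 319, 352 and 319 in si-BAP1 arrays, 367, 361 and 360 in si-MBD5 arrays and 360, 386 and 403 in si-Control arrays. The si-BAP1 arrays lay below all si-Control arrays, and the log2 change was -0.20 (SE 0.050, adjusted p = 0.0111). In si-MBD5 the difference was -0.07 (adjusted p = 0.399). The dimmer 11743758_a_at read 61.2, 71.6 and 60.2 in si-BAP1 arrays, 71.5, 72.0 and 66.7 in si-MBD5 arrays and 71.2, 83.5 and 87.8 in si-Control arrays. It fell in si-BAP1, with a log2 change of -0.27 (SE 0.070, adjusted p = 0.0147) although single arrays overlapped. Both ACO1 calls were lost without si-BAP1 replicate 1 (adjusted p = 0.0508 and 0.0605 in the order given) or 3 (0.0550 and 0.0723), and the dimmer one also without si-Control replicate 2 (0.0649) or 3 (0.0666). In si-MBD5 the dimmer one passed without si-Control replicate 1 (0.0429). The remaining ACO1 probe set, 11764092_at, was below the filter, between 9.04 and 14.6 in all arrays.

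Other iron genes were read from lists by role, set out with earlier results of these data known: 47 genes, of which 44 had a probe set and 34 had 1 above the filter. Of their 97 probe sets above the filter, 10 rose and 21 fell in si-BAP1, and 3 rose and 19 fell in si-MBD5, both against si-Control. Over all probe sets kept, 11.4% rose and 8.79% fell in si-BAP1, and 5.90% rose and 6.65% fell in si-MBD5. Their median log2 fold change was -0.02 in si-BAP1 and -0.01 in si-MBD5, against 0.01 and 0.00038 over all probe sets. The heme genes and the mitochondrial iron genes held 19 of the 21 falls in si-BAP1.

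Of 27 probe sets of heme genes, 3 rose and 11 fell in si-BAP1, and 7 fell in si-MBD5 with none higher. The share over all probe sets that fell was 8.79% in si-BAP1 and 6.65% in si-MBD5, and the list was not tested as a set. BLVRA, a biliverdin reductase of heme breakdown, averaged 297 ± 17.0 in si-BAP1 arrays and 378 ± 15.3 in si-MBD5 arrays, against 460 ± 5.37 in si-Control arrays (SD, n = 3 each). Its log2 change was -0.61 in si-BAP1 (adjusted p = 1.6e-06) and -0.27 in si-MBD5 (adjusted p = 0.00194). HMOX1, the inducible heme oxygenase one step earlier, fell at all 3 probe sets in si-BAP1 and at 1 of 3 in si-MBD5. Its brightest averaged 225 ± 10.1 in si-BAP1 arrays and 257 ± 14.6 in si-MBD5 arrays, against 286 ± 10.9 in si-Control arrays. The log2 change was -0.33 in si-BAP1 (adjusted p = 4.8e-04).

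ALAS1, which starts heme synthesis, fell at all 4 probe sets in si-BAP1, with log2 changes of -0.42 to -0.36, and at 3 of 4 in si-MBD5. Its probe set 11733041_a_at averaged 338 ± 22.3 in si-BAP1 arrays and 371 ± 9.63 in si-MBD5 arrays, against 456 ± 25.8 in si-Control arrays (SD, n = 3 each). SLC48A1, a heme transporter, fell at 1 of 4 probe sets in both knockdowns, with log2 changes of -0.19 in si-BAP1 and -0.18 in si-MBD5. Outside the naming rule, and named after their values were seen, the other biliverdin reductase gene, BLVRB, fell in si-BAP1 (-0.30) and SLC46A1, a heme and folate transporter, in si-BAP1 (-0.20) and si-MBD5 (-0.33). The 3 heme probe sets that rose in si-BAP1 were 2 of FLVCR2 (0.21 and 0.19) and 1 of FLVCR1 (0.17), named likewise.

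**Figure D4:**
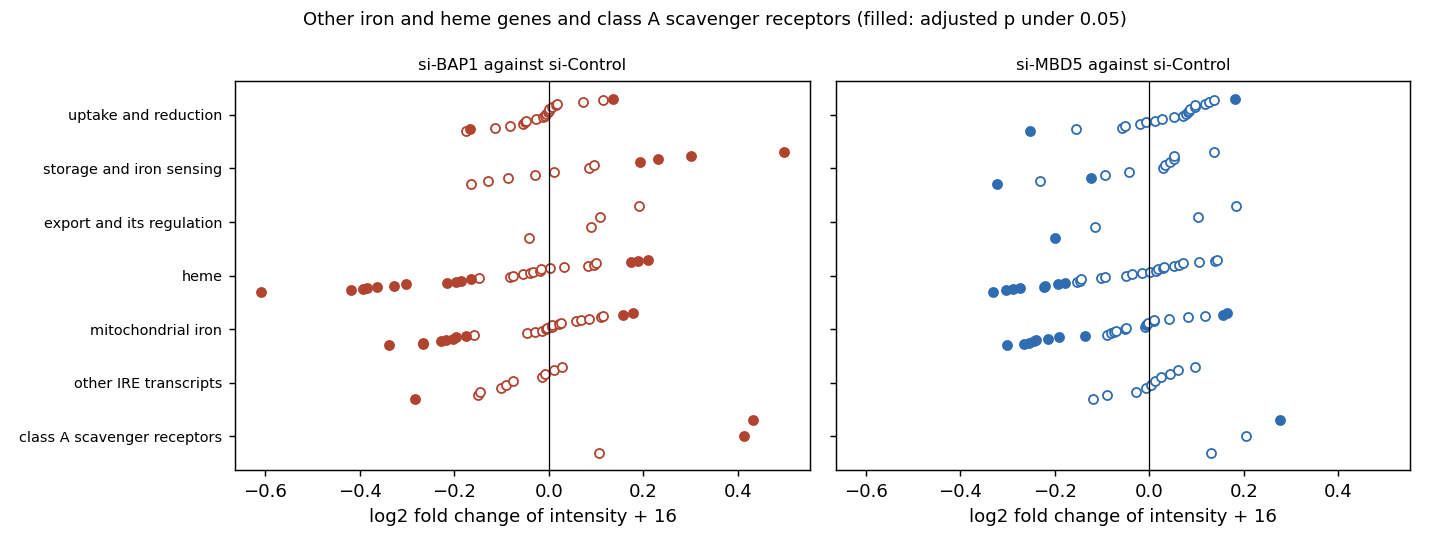
Log2 fold change (horizontal axis, on log2 of intensity plus 16) of each probe set above the filter in the lists of other iron genes and class A scavenger receptors, for si-BAP1 (left) and si-MBD5 (right) against si-Control. Each point is a probe set and filled points have a limma adjusted p under 0.05. The leftmost point in si-BAP1 is BLVRA at -0.61, and the rightmost is PCBP2 at 0.50.

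Of 25 probe sets of mitochondrial iron genes, 2 rose and 8 fell in each knockdown, beside the same shares over all probe sets of 8.79% lower in si-BAP1 and 6.65% lower in si-MBD5. SLC25A37 (mitoferrin), which brings iron into mitochondria, fell at 5 of 5 probe sets in both. Its probe set 11759560_s_at averaged 199 ± 3.22 in si-BAP1 arrays and 204 ± 5.04 in si-MBD5 arrays, against 256 ± 12.1 in si-Control arrays (SD, n = 3 each), with log2 changes of -0.34 and -0.30. ISCU, the scaffold on which iron-sulphur clusters are built, fell at 2 of 4 in both, and CISD1, an outer-membrane iron-sulphur protein, at 1 of 2 in both. NFS1, the cysteine desulphurase that supplies the sulphur, rose at 2 of 4 in both, by 0.16 and 0.18 in si-BAP1. No probe set of this list passed between si-BAP1 and si-MBD5.

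The remaining lists were not tested as sets. Over all probe sets kept, 11.4% rose and 8.79% fell in si-BAP1, and 5.90% rose and 6.65% fell in si-MBD5. Of 20 probe sets for uptake and reduction, SLC39A14, a zinc and iron importer, rose in both knockdowns, averaging 1675 ± 30.8 in si-BAP1 arrays and 1728 ± 44.0 in si-MBD5 arrays, against 1522 ± 7.85 in si-Control arrays (SD, n = 3 each). The ferric reductase CYBRD1 fell at 1 of 4 in si-MBD5 (-0.25), and HFE at 1 of 8 in si-BAP1 (-0.17). Of 11 for storage and sensing, 4 of 8 probe sets of PCBP2, an iron chaperone of ferritin, rose in si-BAP1, by up to 0.50 (adjusted p = 5.9e-06). In si-MBD5 another PCBP2 probe set fell (-0.32), as did 1 of FBXL5 (-0.12), the iron-sensing ubiquitin ligase subunit. Of 4 for export and its regulation, 1 of BMP6 fell in si-MBD5 (-0.20). Of 10 for other transcripts with an iron-responsive element, 1 of EPAS1, which encodes HIF-2 alpha, fell in si-BAP1 (-0.28).

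Of the class A scavenger receptors related to SCARA5, 3 probe sets passed the filter, all of SCARA3, and those of MSR1, MARCO and COLEC12 did not. SCARA3 rose in si-BAP1 at 2 of these 3 and in si-MBD5 at 1. Its probe set 11725877_a_at averaged 75.0 ± 1.53 in si-BAP1 arrays and 66.8 ± 5.0 in si-MBD5 arrays, against 52.3 ± 1.42 in si-Control arrays (SD, n = 3 each). It rose by 0.41 in si-BAP1 (adjusted p = 7.5e-05) and by 0.28 in si-MBD5 (adjusted p = 0.00307). The brighter 11726173_at averaged 310 ± 10.8 in si-BAP1 arrays and 263 ± 1.71 in si-MBD5 arrays, against 227 ± 29.0 in si-Control arrays. It rose by 0.43 in si-BAP1 (adjusted p = 5.0e-04), and its difference of 0.20 in si-MBD5 did not pass (adjusted p = 0.0675). The dim 11726172_x_at passed in neither, with differences of 0.11 in si-BAP1 and 0.13 in si-MBD5.

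The genes whose pattern was most like that of the brightest SCARA5 probe set were found by Pearson's r of log2 values over the 9 arrays, among 12190 genes at their brightest probe set. They were PAPOLA (r = 0.994), PPP3CA (0.989), BTN2A1 (0.987), SRSF9 (0.986) and PARK7 (0.986). PAPOLA averaged 1058 ± 35.9 in si-BAP1 arrays, 1575 ± 20.0 in si-MBD5 arrays and 1709 ± 24.2 in si-Control arrays. The most opposite were RAPGEF2 (-0.993), CRISPLD2 (-0.990), ACACA (-0.984), SPC24 (-0.984) and SV2B (-0.983). With 3 groups of 3 arrays, r mostly reflects the order of the group means, and it is given as a description.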

How the data were processed

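RNA of 9 arrays was measured, 3 each of si-BAP1, si-MBD5 and si-Control, grouped by the sample titles. The authors deposited intensity values on a linear scale for 49395 probe sets (102 of them controls), made with MAS5 per the submitters' processing notes. 57.7% of the probe sets hold exactly the same value in at least 2 arrays. The version, scaling target and array dates are not given in the sources used here. Gene symbols came from the platform annotation: 44988 probe sets had 1 symbol, 1832 several and 2473 none, and 44961 symbols matched RefSeq (GRCh38.p14).

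Here the deposited intensity was taken as log2(intensity + 16), since the constant damps the noise of dim probe sets and understates the change of low ones. Probe sets with a mean over the 40th percentile (25.5) were kept, and the 3 groups were fitted together in limma 3.58.1 (R 4.3.3) with an intensity trend, 6 residual degrees of freedom and Benjamini-Hochberg adjustment over 29584 probe sets. The fit was tested on simulated data. The number of arrays limits the precision. Each percent change is of mean intensities. Probe sets are read apart, and levels of different probe sets are not compared. The expression of FTH1, IREB2 and BAP1 is not analysed here.

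The genes and lists were chosen with earlier results of these data known, so their calls are not independent evidence. Named genes were all probe sets of the 10 genes, up to 4 genes a list by smallest adjusted p, MBD5, and the 5 most like and 5 most opposite SCARA5. Replicate numbers were not taken to pair arrays: the deviations of same-numbered arrays correlated at -0.401 to 0.434, and those of other pairs at -0.529 to 0.459. Alternatives were the added constant, normalization between arrays, the filter, the probe set chosen, the replicate block, the variance model, the groups fitted and leaving out each array.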

Additional observations from a re-analysis of the deposited data

Results flagged for a closer look

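These iron probe sets had effects that differed between the knockdowns, both set against the same si-Control arrays, by the direct limma comparison of si-BAP1 with si-MBD5. SLC11A2 at 11744052_a_at differed by -0.30 on the log2 scale, with all si-BAP1 arrays lower than all si-MBD5 arrays. TFRC at 11756156_s_at differed by 0.13, with all si-BAP1 arrays higher. FTL differed by -0.097 at 11757327_x_at, by -0.11 at 11755280_x_at and by -0.089 at 11758182_x_at, and did not pass the threshold at its other probe sets. The TFRC and FTL differences were lost in several alternatives: TFRC in 10, with adjusted p up to 0.112, and the FTL probe sets in 3, 4 and 10 in the order given. SCARA5 at 11727780_a_at, which was chosen by its si-BAP1 signal, had a log2 difference of -0.75 between the knockdowns, given as a description with no test. Groups of 3 arrays are too small for a search for single outlying arrays.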

How the results depend on the processing

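Under all alternatives run, no fold change of an iron probe set that was called turned its sign. Of the values of single probe sets under alternatives, 1429 kept their side of the threshold, 62 lost it and 15 gained it. Counts of iron probe sets are given with SCARA5. With only the brightest probe set of each gene, 7 iron probe sets and 12434 in all were tested, against 25 and 29584 as reported. Of these, 4 iron probe sets (12 in the fit as reported) passed for si-BAP1 against si-Control, with 2918 (5984) in all. For si-MBD5 against si-Control it was 2 (3), with 2025 (3711) in all. The comparison of si-BAP1 with si-MBD5 gave 3 (6), with 1240 (2275) in all. Quantile normalization gave 5 (3) for si-MBD5 against si-Control, with 4043 (3711) over all probe sets. For si-BAP1 against si-MBD5, median centring gave 3, no filter 2 and no intensity trend 2. Over all probe sets these settings gave 1864, 1752 (of 49293 tested) and 2007, against 2275 in the fit as reported. The cause was not tested. Quantile normalization also gave 1162 higher and 1229 lower in that comparison, against 1341 and 934 as deposited. Leaving out 1 array at a time gave 8 to 12 iron probe sets and 4407 to 6518 in all for si-BAP1 against si-Control, 1 to 3 and 2270 to 3722 for si-MBD5 against si-Control, and 3 to 6 and 1186 to 2492 for si-BAP1 against si-MBD5. The 1 came without si-Control replicate 2 (2270 in all) or si-MBD5 replicate 1, and the 3 without si-BAP1 replicate 2 (1436 in all). Over all probe sets, that last comparison also had 1459 without si-BAP1 replicate 1, 1291 without si-BAP1 replicate 3 and 1186 without si-MBD5 replicate 1. The ACTB ratio difference was -1.28 to -0.774 in si-BAP1 and -0.184 to 0.529 in si-MBD5 with 1 array left out, and that of GAPDH 0.0102 to 0.0360 and -0.00253 to 0.0232. With the replicate number as a block, 12, 2 and 4 iron probe sets passed in the 3 comparisons, and 5842, 3433 and 2055 in all. The arrays share only a number, so this block is not a pairing of cultures. Dim probe sets, among them both of SLC40A1 and of MBD5, carry too little signal for a test. The setting with no added constant was chosen after seeing the data, as was leaving out arrays for the control ratios.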

Other observations

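The globin gene HBB, read as a marker of erythroid cells, had 3 probe sets above the filter, and 2 rose in both knockdowns. The set 11715347_s_at averaged 81.4 ± 0.791 in si-BAP1 arrays and 75.6 ± 3.24 in si-MBD5 arrays, against 40.7 ± 2.82 in si-Control arrays (SD, n = 3 each). Its log2 changes were 0.78 in si-BAP1 (limma adjusted p = 4.1e-07) and 0.69 in si-MBD5 (limma adjusted p = 3.2e-06), higher in 3 of 3 arrays of each. The brighter 11715348_x_at rose by 0.22 in si-BAP1 and 0.24 in si-MBD5, and 11753712_x_at did not pass in either. HBB was singled out after its values were seen.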
